A study of Caenorhabditis elegans with 6 samples.

Results

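The transcriptome described here is that of wild type Caenorhabditis elegans embryos of strain N2 at 25 °C, measured on 3 of the 6 arrays of the series. The members were chosen by genotype alone, as the 3 wild type arrays, and the other 3 arrays carried mir-35-41(nDf50) mutant embryos and entered no value below. The signal of 17009 genes was read on the 3 wild type arrays. Wild type worms were raised on NGM agar plates with added chicken egg yolk and were moved from 20 °C to 25 °C 24 hours before collection. Hypochlorite, which dissolves worms and spares embryos inside their eggshells, then left a pooled population of embryos of mixed stages. Total RNA was taken up in Trizol and labelled with biotin after a single round of amplification. The labels number the wild type samples 1 to 3 without saying that they came from separate cultures, so the spread between arrays may be technical. With 1 group and 3 arrays no test was applied, and the number of arrays limits the precision of every mean and SD.

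The worm embryo begins with messenger RNA and protein that the mother loaded into the oocyte, and RNA-binding proteins such as POS-1 and MEX-5 set where maternal messages are translated. Transcription of the embryo's own genome starts within the first cleavages, and lineage factors then commit cells to gut, muscle, epidermis, pharynx and nervous system. In the later embryo the epidermis encloses the body, muscle begins to contract and the cuticle collagens of the first larva are made. A mixed-stage sample holds all these phases at once. In such a bulk sample, fewer cells of a type and less RNA per cell cannot be told apart.

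Levels are given as log2 of the deposited intensity, so that a difference of 1 is a 2-fold difference of one probe set between arrays. Probes differ in how well they bind, so an order of genes by level is an order of signals and not of molecules. The 5 yeast probe sets of the array, named AFFX with the label Y, are complementary to yeast RNA, and they served as a measure of background. Their means over the 3 arrays ran from 3.75 to 5.42. A gene was counted as above these controls when it exceeded the brightest yeast probe set of the same array, at 5.46, 5.31 and 5.55 on arrays 1, 2 and 3, on all 3 arrays. Of the 17009 genes, 10744 (63.2%) were above the yeast controls on all 3 arrays. Another 846 (4.97%) were above on 1 or 2 arrays, and 5419 (31.9%) were at or below them on all 3. Each count of genes above in a list or family is to be read beside this 63.2%. Of 27 probe sets for the bacterial dap, lys, phe, thr and trp transcripts, 26 were at or below the same bound on all 3 arrays and 1 was above it on all 3. A gene at or below the controls is not shown to be silent, since a probe set can fail. Among 2589 genes above the controls with several probe sets, 289 (11.2%) had another probe set at or below them on all 3 arrays.

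**Figure D1:**
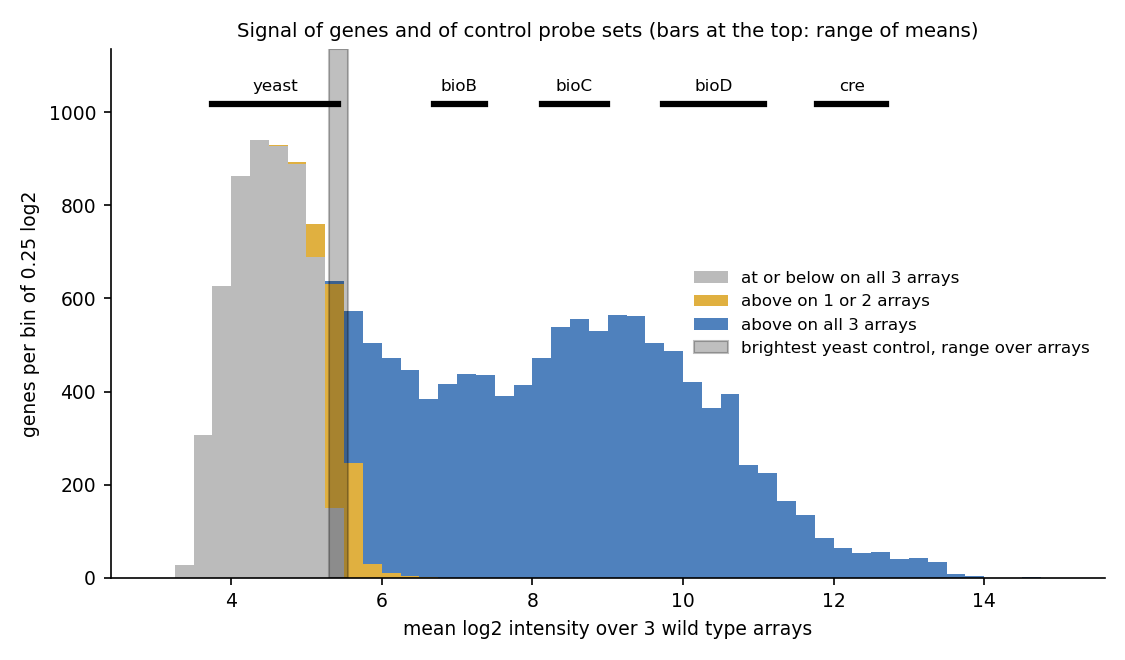
Number of genes (vertical axis, in bins of 0.25) by mean log2 intensity over the 3 wild type arrays (horizontal axis), coloured by whether the gene exceeded the brightest yeast control. The grey band spans that control over the 3 arrays, from 5.31 to 5.55, and bars at the top give the range of control means. Signals form a dim peak inside the range of the yeast controls and a broad bright one, with a median of 8.58 among the 10744 genes above.

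The median gene had a log2 intensity of 6.84, and the median among genes above the controls was 8.58, with 90% of those genes between 5.85 and 11.48. The plot of signals shows 2 peaks, 1 within the range of the yeast controls and 1 around the bioC and bioD hybridization spikes. These spikes are bacterial transcripts added at known dilutions. Their means rose in their known order, from 6.69 to 7.37 for bioB, 8.12 to 8.99 for bioC, 9.74 to 11.07 for bioD and 11.78 to 12.69 for the phage transcript cre. At the bright end, 305 genes (1.79%) exceeded 12. The 100 brightest genes held 11.3% of the summed intensity of all genes and the 500 brightest 31.9%, and 1238 genes together held 50%.

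The brightest gene was sqt-3, a cuticle collagen required for body shape, at 14.57, 14.53 and 14.52 on arrays 1, 2 and 3 (mean 14.54 ± 0.027, SD, n = 3). The collagen dpy-17 was the fourth, at 13.86, 13.79 and 13.83. Between them stood F41F3.3 at 13.98, 13.93 and 14.06, and hil-7, a linker histone gene, at 13.90, 13.91 and 14.01. These 4 genes varied by at most 1.09-fold between arrays. A cuticlin gene, cut-2, had a mean of 13.80 ± 0.044. The calreticulin gene crt-1, a calcium-binding chaperone of the endoplasmic reticulum, had 13.71 ± 0.048. The chromatin protein gene hmg-1.1 was at 13.61 ± 0.037 and the caveolin gene cav-1, a membrane protein of oocytes and early embryos, at 13.54 ± 0.068. A gene of the his family, in the sixth place, is counted with its family only. The other brightest genes outside the ribosome and the his family were the collagen col-43 (13.51), Y82E9BR.3 (13.51), the aquaporin aqp-2 (13.48) and the translation elongation factor eef-1A.1 (13.47). The glyoxylate cycle enzyme icl-1, which lets embryos turn stored fat into carbohydrate, had a mean of 13.45 and was the only one of the 20 named brightest genes with a range above 1.3-fold between arrays. Its values were 13.65, 13.60 and 13.11, lowest on array 3. Many of these brightest genes, among them sqt-3, F41F3.3, hil-7, cut-2 and col-43, were read by probe sets of a kind marked as shared. Related genes may therefore add to their signal.

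Ribosomal protein genes formed the largest class at the top. Of 78 measured genes, 51 were among the 100 brightest, which hold 0.588% of all genes, and 76 were among the 500 brightest, which hold 2.94%. The brightest were rpl-17 (13.65, 13.63 and 13.84), rpl-8 (13.72, 13.69 and 13.67) and rps-25 (13.44, 13.60 and 13.68). The median of the family was 13.08 against 6.84 for all genes, and 77 of 78 were above the yeast controls. Of 99 of the 100 brightest genes with a known span, 53 span at most 1 kb on the genome, against 13.3% of all genes. Without the ribosomal protein genes the count was 15 of 49. Genes of oxidative phosphorylation had the highest median of the 32 gene lists, 11.60. All 36 were above the controls, led by the ATP synthase subunit atp-2 (13.12 ± 0.20), cytochrome c cyc-2.1 (13.08 ± 0.064) and atp-1 (12.88 ± 0.20). All 34 genes of the translation list were also above, with the poly(A)-binding protein pab-1 at 13.17 behind eef-1A.1. That list also holds the ubiquitin gene ubq-1, no translation factor, at 13.21. All 31 proteasome subunits were above in a narrow range, from 8.50 to 11.48, with rpn-3, rpt-3 and pbs-1 the brightest.

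Body shape collagens split into a bright and a dim group, with no mean between those of lon-3 (7.98) and dpy-2 (11.39). Of 18 measured dpy, sqt, rol, bli and lon genes, 16 were above the yeast controls. Behind sqt-3 and dpy-17, the third was dpy-14, a collagen known to be made in the embryo, at 13.30 on all 3 arrays. Its SD of 0.003 was the smallest of any gene with a mean over 10. The blister collagen bli-1 was at 4.46, 4.33 and 4.46 and the collagen sqt-1 at 4.70, 4.87 and 4.70, both within the range of the yeast controls on each array. Within the list, lon-3 varied most, at 7.68, 7.95 and 8.30. Of 125 numbered col genes 102 were above, but their median was 6.78, so that most stood far below col-43. The stable col-74 had a mean of 12.63 with an SD of 0.007.

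Genes of the epidermis and of its outer matrix were high. All 37 listed genes were above the controls, with a median of 10.73. The brightest were noah-2 (12.69 ± 0.16) and noah-1 (12.63 ± 0.13), both proteins of the extracellular coat of the embryonic epidermis, and lpr-3 (12.37 ± 0.20), a lipocalin of apical matrix. The spectraplakin vab-10, which links epidermal attachments to the cytoskeleton, varied most, at 10.90, 11.07 and 10.20. All 10 genes listed as epidermal factors were above. The brightest was ceh-20 (11.36 ± 0.086), which the Hox and patterning list also holds and which is not particular to epidermis. Behind it stood egl-18 (11.10 ± 0.064) and ceh-43 (10.57 ± 0.22). The hedgehog-related gene wrt-2, active in epidermis, reached 12.17 ± 0.049, the highest of 55 genes of its families, of which 37 were above.

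Maternal regulators were all detected. The 39 measured genes were above the yeast controls on all 3 arrays, with a median of 10.15. The 14-3-3 protein gene par-5, needed for embryonic polarity, had 12.95, 13.01 and 13.01. The zinc finger gene pos-1 had 12.42, 12.35 and 12.26. The kinase gene mbk-2, which marks maternal proteins for destruction at the start of embryogenesis, had 12.14, 12.16 and 11.97. The dimmest was lin-41, a regulator of oocyte maturation, at 6.23 ± 0.15. Among the list the SD was largest for skn-1, the factor of the endoderm and mesoderm lineage, at 9.81, 9.53 and 8.95. The lowest value of skn-1 was on array 3, as for most of the list.

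Of 17 genes of the eggshell, of fertilization and of the oocyte, 16 were above. Behind cav-1 stood the chitinase gene cht-1, at 13.41, 13.06 and 12.73, and rmd-1, a regulator of microtubule dynamics, at 11.26 ± 0.044. The chondroitin proteoglycan gene cpg-2, of the eggshell, had the largest SD, at 9.51, 10.41 and 10.44, lowest on array 1. The member at the controls was spe-11, a paternally supplied factor, at 4.04, 4.05 and 3.98. Germline genes were above in 34 of 36 cases and in between in 2. The brightest were cgh-1, an RNA helicase of germ granules (11.43 ± 0.23), the Argonaute gene wago-1 (10.54 ± 0.24) and the cap-binding protein gene ife-1 (10.51 ± 0.29). Of 27 meiosis genes 24 were above, led by the cohesin subunit him-1 (10.20 ± 0.075), him-17 (10.07 ± 0.10) and the recombinase rad-51 (9.84 ± 0.17).

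The list of early zygotic genes had a median of 7.91. It also holds genes of the Hox and patterning list, such as mab-5, nob-1 and vab-7. Its counts therefore do not describe the first cell divisions alone. Of 37 measured, 30 were above, 1 was in between and 6 were at or below. The SKN-1-dependent gene sdz-28 was the brightest at 10.47, 10.94 and 11.05. The neuronal repressor ztf-11 (10.79 ± 0.13) and vet-6 (10.78 ± 0.20) followed. At the level of the controls were lin-22 (4.30 ± 0.013), med-1 (4.73 ± 0.10) and the T-box genes tbx-31 (4.43 ± 0.10) and tbx-32 (3.70 ± 0.062). The med genes are known for brief expression in the precursor of endoderm and mesoderm, and lin-22 for repressing neuronal fates in the epidermis. The gene sdz-38 varied most, at 8.15, 8.50 and 9.18, a range of 2.04-fold.

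Fate factors of the main lineages were present at intermediate levels. Of 7 endoderm factors 6 were above, with dve-1 (9.95 ± 0.30), elt-7 (9.16 ± 0.20) and end-1 (8.89 ± 0.10) the brightest and med-1 at the controls. All 6 muscle factors were above. The caudal homologue pal-1, which specifies posterior muscle, had 10.77 ± 0.058, and unc-120 (10.18 ± 0.17) and hnd-1 (9.31 ± 0.23) followed. The lists of maternal regulators and of Hox and patterning genes also hold pal-1, so its level is not particular to muscle. The myogenic factor hlh-1 was at 7.87, 7.40 and 7.74. Of 9 pharynx factors 6 were above, with the organ identity gene pha-4 at 10.79, 10.52 and 10.19, and ceh-34 (10.47 ± 0.041) and peb-1 (9.81 ± 0.071) behind it. Of the rest, ceh-28 (4.97 ± 0.085), pha-1 (4.58 ± 0.19) and pha-2 (4.63 ± 0.12) were at the controls. All 26 neuronal fate factors were above, led by hlh-2 (11.24 ± 0.22), egl-46 (11.24 ± 0.045) and daf-19 (10.56 ± 0.12), and the taste neuron factor che-1 varied most, at 6.42 ± 0.37. Of 11 Hox and patterning genes 9 were above, led by ceh-20 (11.36 ± 0.086) and unc-62 (10.90 ± 0.21). The tail Hox gene egl-5 was at 4.75 ± 0.074.

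Structural genes of body wall muscle were as bright as those of the epidermis, with all 40 above the controls and a median of 10.66. The troponin C gene pat-10 was at 12.95, 13.05 and 13.17, the actin gene act-4 at 12.96 ± 0.12, and the myosin light chain gene mlc-2 at 12.81, 12.69 and 12.94. None of these 3 had a range above 1.2-fold. The titin gene ttn-1 was the member with the largest SD, at 7.71, 8.79 and 7.51, a range of 2.42-fold. Of 17 genes of the pharyngeal muscle and glands 15 were above, with a median of 7.88. The gland and pharynx genes phat-5 (10.82 ± 0.048) and phat-2 (10.51 ± 0.16) and the troponin T gene tnt-4 (9.87, 9.96 and 10.17) led, and phat-3 was at the controls (4.30 ± 0.055). The troponin C gene tnc-2 was lowest on array 1, at 9.15, 9.84 and 10.24.

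Of 40 intestinal genes 35 were above, with a median of 8.91. The ferritin gene ftn-2 had 12.18 ± 0.060, and the aspartyl protease genes asp-1 and asp-4 had 12.04 ± 0.16 and 11.82 ± 0.16. The transporter pgp-1 was at the controls, at 4.76 ± 0.20. The cathepsin B gene cpr-1 was the most variable, at 7.16 ± 0.97, a range of 3.79-fold with array 1 the highest at 8.19 and array 2 the lowest at 6.27.

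Genes of neuronal function were above in 48 of 51 cases, with a median of 8.51. The ankyrin unc-44 was at 12.40 ± 0.19, the synaptobrevin snb-1 at 11.54 ± 0.15 and the kinesin heavy chain unc-116 at 11.23 ± 0.14, and all of them are also used outside synapses. The secretion factor unc-31 was just below the yeast bound, at 5.27, 5.29 and 5.12. The calcium channel subunit unc-36 varied most, at 7.61, 9.01 and 8.80. Of 36 genes of cilia and touch neurons 31 were above, with a lower median of 7.03. The touch neuron tubulin mec-7 (10.59 ± 0.060), dyf-7 (10.14 ± 0.065), which anchors growing sensory dendrites, and the ciliary tubulin tbb-4 (10.02 ± 0.19) were the brightest. Both tubulins were read by probe sets of a kind marked as shared, so brighter tubulins such as tbb-2 (13.23) may add to their signal. At the controls were bbs-2 (4.48 ± 0.52), bbs-9 (4.67 ± 0.44) and tba-5 (5.40 ± 0.086). The ciliary dynein che-3 was lowest on array 1, at 6.34, 8.02 and 7.27. Of 17 genes of glia and the excretory system 14 were above, led by vha-8 (11.62 ± 0.068), exc-9 (10.34 ± 0.37) and exc-6 (9.07 ± 0.20). The gene vha-8 also counts among the vacuolar proton pump genes, all 20 of them above with a median of 11.58. Its level is therefore not particular to glia or the excretory system. The transporters sulp-4 (4.35 ± 0.13) and sulp-5 (3.82 ± 0.050) were at the controls.

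**Figure D2:**
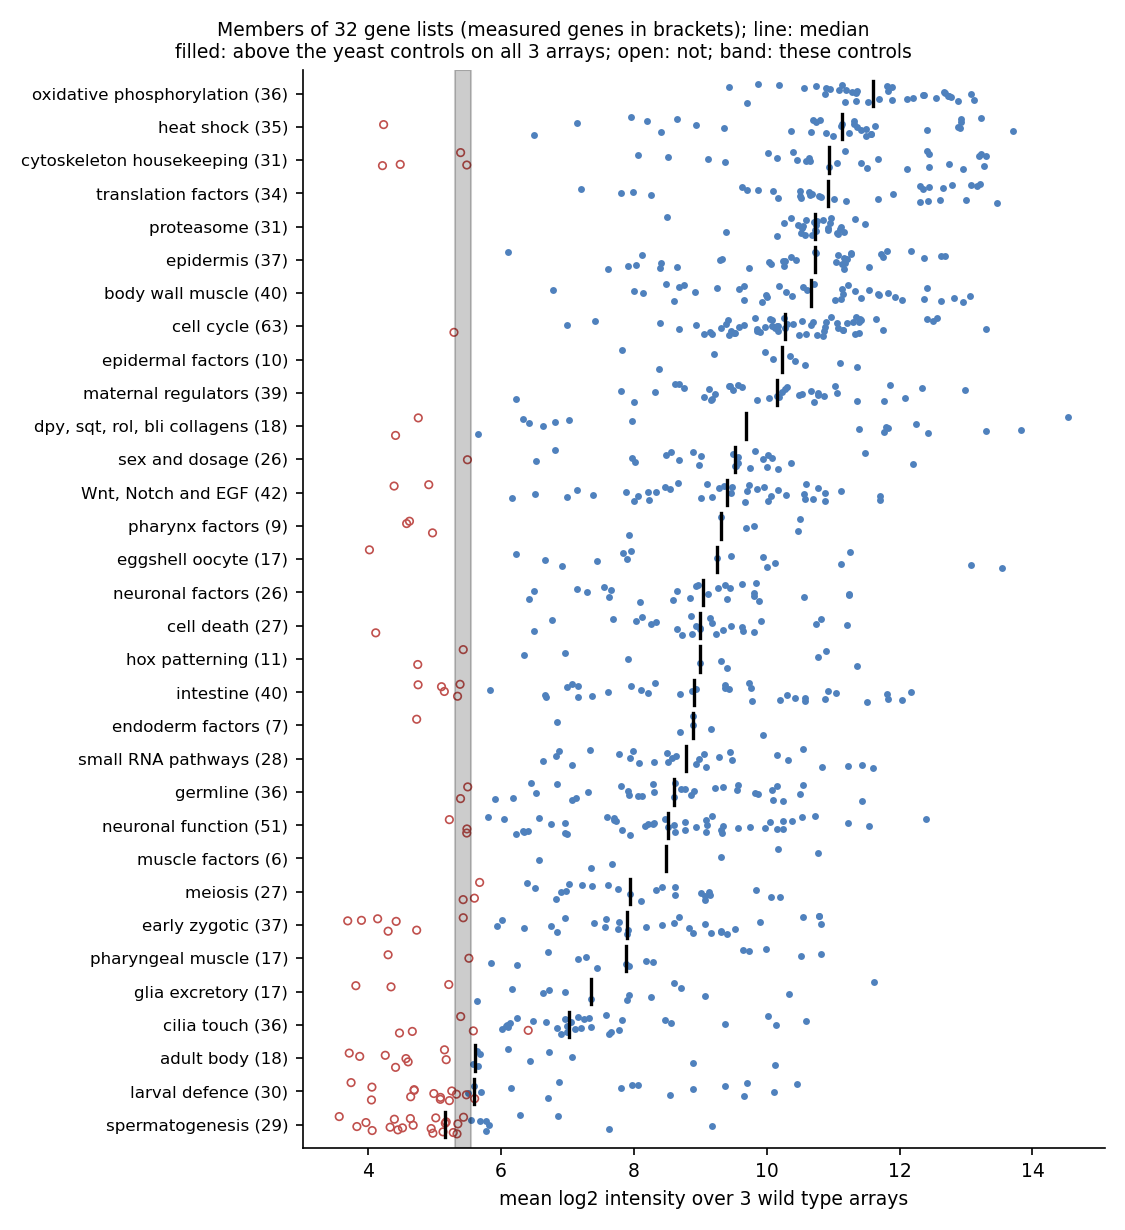
Mean log2 intensity over the 3 wild type arrays (horizontal axis) of each measured member of 32 gene lists (vertical axis, ordered by median). Filled points were above the brightest yeast control on all 3 arrays and open points were not, black lines are list medians and the grey band spans that control. The medians run from 5.16 for spermatogenesis to 11.60 for oxidative phosphorylation.

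Markers of adult bodies, sperm and larval defence were the dimmest of the lists. For spermatogenesis, 9 of 29 genes were above, 3 were in between and 17 were at or below, with a median of 5.16. The brightest were spe-39 (9.18 ± 0.026), spe-15 (7.63 ± 0.074) and swm-1 (6.87 ± 0.48), and the first of these acts in vesicle traffic in other cells too. Examples at the controls are gipc-1 (4.98 ± 0.15), gsp-4 (5.13 ± 0.030), snf-10 (4.06 ± 0.018) and spe-12 (4.45 ± 0.066). Major sperm protein genes were above in 20 of 23 cases, but mostly by a small margin. Over all 23 the means ran from 5.38 to 7.45, with a median of 6.36. With a bound 2-fold over the brightest yeast control, 30.4% of them and 6.90% of the spermatogenesis list remained above, beside 51.2% of all genes.

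Of 18 adult genes 10 were above (55.6%, beside 63.2% of all genes) and 8 at or below, with a median of 5.61. At the 2-fold higher bound 22.2% were above, beside 51.2% of all genes. The cadherin cdh-3 (10.13 ± 0.23), col-63 (8.90 ± 0.17) and ule-3 (7.08 ± 0.16) were the brightest. The collagen bli-1, the fatty acid desaturase fat-7 (4.61 ± 0.034), rol-1 (5.18 ± 0.078) and ule-1 (4.57 ± 0.13) were at the controls. The vitellogenins are yolk proteins made in the adult intestine, and their values are given here although they were chosen after their values were seen. The yolk gene vit-2 was at 3.72 ± 0.050 and vit-5 at 5.15 ± 0.084, both at the controls. The highest of the yolk genes was vit-3 at 6.73 ± 0.070. Of 30 larval defence genes 16 were above (53.3%, beside the same 63.2%). The brightest were the antimicrobial peptide genes nlp-31 (10.36, 10.12 and 10.88) and nlp-33 (9.09, 9.72 and 10.30) and the transcription factor hlh-30 (10.11 ± 0.35). The peptides abf-1 (5.23 ± 0.080), abf-2 (4.05 ± 0.22), cnc-1 (5.09 ± 0.11) and cnc-2 (4.64 ± 0.069) were at the controls.

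Among 29 gene families taken by name, the share above the yeast controls ran from 7.15% to 100%. Predicted chemoreceptors, which act in differentiated sensory neurons, were above in 81 of 1133 cases with a median of 4.52, and the brightest was srr-4 at 9.62 ± 0.059. C-type lectins were above in 56 of 217 cases, yet clec-266 reached 13.29 ± 0.14 and was among the 100 brightest genes. Proteins with MATH and BATH domains (22 of 80, led by bath-42 at 11.36 ± 0.053), cytochrome P450 enzymes (27 of 70, led by cyp-13B1 at 10.61 ± 0.26) and F-box proteins (137 of 285, led by fbxc-51 at 11.39 ± 0.056) were also below the 63.2% of all genes. Nuclear hormone receptors were above in 142 of 249 cases, with nhr-49, a regulator of fat metabolism, at 11.48 ± 0.17. Ion channel subunits had 66 of 130 above (lgc-22, 11.09 ± 0.071), insulin-like peptides 12 of 23 (ins-34, 9.78 ± 0.52) and UDP-glucuronosyltransferases 36 of 63 (ugt-50, 10.54 ± 0.090). Several of these shares depend on genes just over the bound. With a bound 2-fold higher, 51.2% of all genes were above. Beside this, 0.706% of chemoreceptors, 11.98% of lectins, 21.4% of P450 enzymes, 24.6% of ion channel subunits, 21.7% of insulin-like peptides and 34.9% of UDP-glucuronosyltransferases were above.

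Other families exceeded the share of all genes under this bound. These were homeobox genes named ceh (43 of 60), helix-loop-helix factors (14 of 18), glutathione S-transferases (29 of 41, led by gst-7 at 11.08 ± 0.11), transthyretin-like genes (27 of 40, led by ttr-50 at 13.07 ± 0.070) and the glutamine-rich abu and pqn genes (52 of 60, led by pqn-53 at 12.24 ± 0.14). Neuropeptide precursors were above in 21 of 25 flp genes, with flp-9 the brightest at 8.77 ± 0.24, and in 43 of 60 nlp genes. Several of these shares were near the 63.2% of all genes. They were 67.5% for transthyretin-like genes, 70.7% for glutathione S-transferases and 71.7% for both ceh and nlp genes. With a bound 2-fold over the brightest yeast control, 51.2% of all genes were above, and the glutathione S-transferases at 36.6% and the nlp genes at 46.7% then stood below that share. Kinesin-like proteins were above in 11 of 14 cases, with klp-12 at 9.21, 10.42 and 10.12. Mitochondrial ribosomal proteins (57 of 59, led by mrps-11 at 11.03 ± 0.18) and histones (31 of 33) were nearly all above. Every measured gene was above in the vacuolar proton pump (20 genes, led by vha-12 at 12.44 ± 0.27), the nuclear pore (25 genes, led by npp-4 at 10.81 ± 0.16), replication licensing (12 genes), the cytosolic chaperonin (8 genes, led by cct-4 at 11.57 ± 0.24) and the small nuclear ribonucleoproteins of splicing (7 genes, led by snr-7 with 11.88 on array 1 and 12.63 on array 3).

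**Figure D3:**
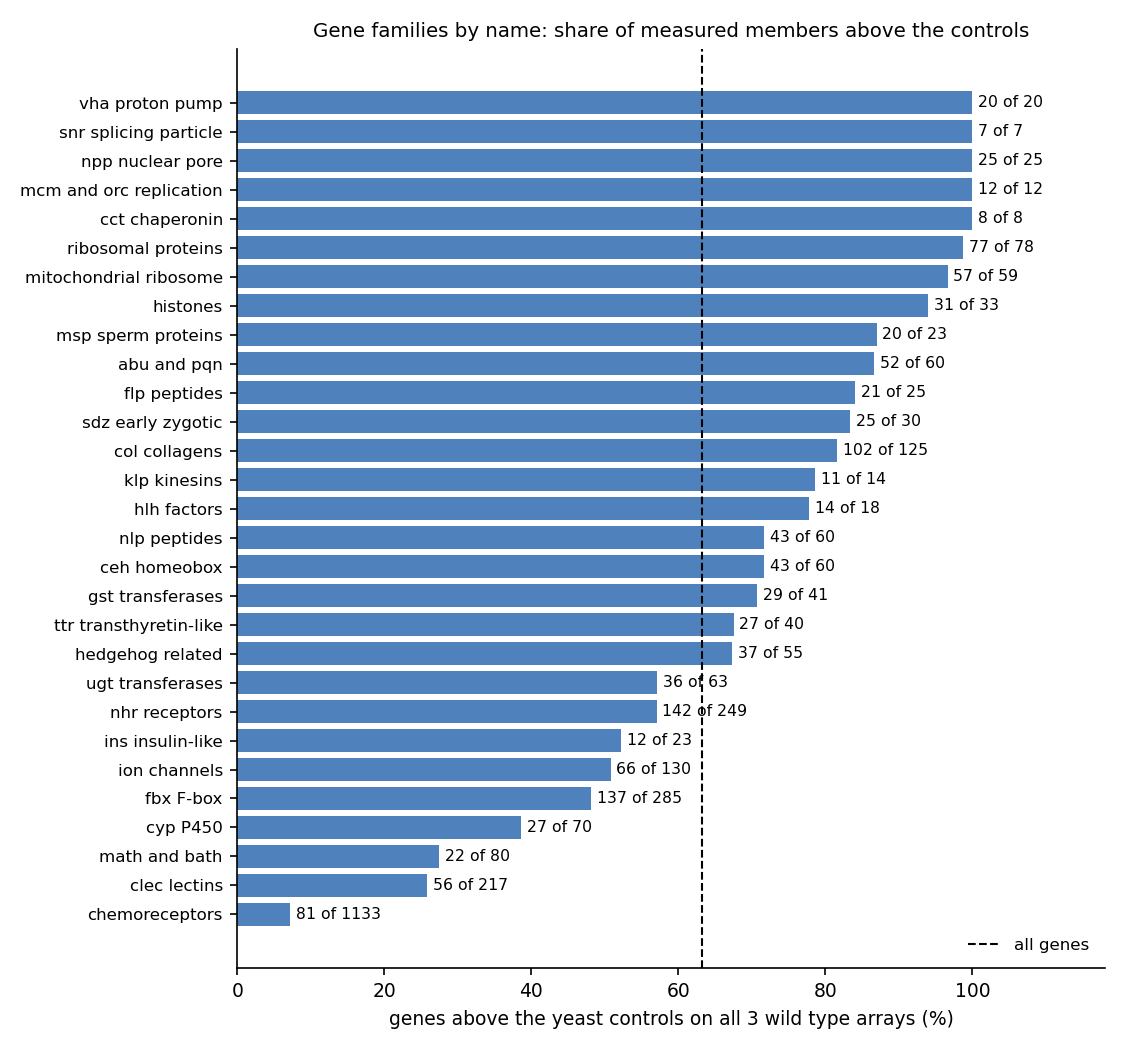
Share of measured members above the yeast controls on all 3 wild type arrays (horizontal axis, percent) for 29 gene families taken by name, with the counts beside each bar. The dashed line is the 63.2% of all genes, and the predicted chemoreceptors lie at the bottom with 81 of 1133.

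Genes of cell division were almost all detected. Of 63 cell cycle genes 62 were above, with a median of 10.27. The mitotic cyclin cyb-3 had 13.38, 13.33 and 13.18, the ribonucleotide reductase subunit rnr-2 had 12.57, 12.50 and 12.62, and the replication licensing factor mcm-7 had 12.77, 12.47 and 12.25. The chromosomal passenger protein csc-1 varied most, at 9.88, 9.44 and 10.26. Cytoskeletal and glycolytic genes were above in 27 of 31 cases, with the tubulins tba-2 (13.29 ± 0.15) and tbb-2 (13.23 ± 0.15) and the mitochondrial carrier ant-1.1 (13.27 ± 0.18) the brightest. Its paralogs ant-1.2 (4.22 ± 0.088) and ant-1.4 (4.49 ± 0.089) were at the controls.

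Of 42 genes of Wnt, Notch and EGF signalling 40 were above. The receptor kinase cam-1 (11.71 ± 0.10), the casein kinase kin-19 (11.70 ± 0.13) and the Nemo-like kinase lit-1 (11.12 ± 0.27) were the brightest, and pen-2, a subunit of the protease that cleaves Notch, varied most, at 9.62, 9.69 and 10.58. The Wnt effector pop-1 was at 4.39, 4.47 and 4.32 and the Notch coactivator sel-8 at 4.96, 4.80 and 4.98. Both are known to act in the early embryo, and each was read by a single probe set at the level of the controls. Of 26 genes of sex determination and dosage compensation 25 were above, led by dpy-30 (12.23, 12.06 and 12.31), sex-1 (11.48 ± 0.29) and fem-2 (10.37 ± 0.10). Of 27 genes of cell death and engulfment 26 were above, led by ces-2 (11.21 ± 0.063), nuc-1 (10.82 ± 0.12) and crn-1 (10.75 ± 0.12), and ced-13 was at the controls (4.12 ± 0.042). All 28 genes of small RNA pathways were above, led by the microRNA effector ain-1 (11.60 ± 0.033), cgh-1 and the Argonaute alg-2 (11.65, 11.19 and 10.82).

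Chaperones were bright at 25 °C, with 34 of 35 above and a median of 11.14. Behind crt-1 stood the small heat shock protein sip-1, known from oocytes and embryos, at 13.47, 13.25 and 12.98, and hsp-3 of the endoplasmic reticulum, at 13.12, 12.97 and 12.70. The small heat shock gene hsp-12.6 was at the controls (4.24 ± 0.10). The strongly heat-inducible hsp-16 genes were looked up after their values were seen. The levels were 11.15, 11.06 and 11.73 for hsp-16.41 and 11.12, 10.76 and 11.54 for hsp-16.2, and both were highest on array 3. No wild type sample at another temperature was measured, so these levels carry no comparison with temperature.

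By chromosome, 76.7% of genes on III and 73.3% on I were above the yeast controls, 69.8% on X, 64.5% on II and 64.4% on IV, and 1927 of 4098 genes on V, the lowest share. Among 247 annotation terms of the deposited table with at least 30 genes, the median level was highest for ribonucleoprotein complex (12.77, all but 1 gene above) and structural constituent of ribosome (12.62, 126 of 134 above). Embryonic development had 163 of 171 genes above, with a median of 10.30, and all 36 genes of RNA splicing were above with a median of 10.93. The lowest medians were those of chitinase activity and chitin catabolic process (both 4.32, 8 of 33 above), followed by sensory perception of chemical stimulus (4.53, 22 of 228 above). Genes can carry several terms, so these counts are not independent.

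The 3 wild type arrays were close but not alike. Over genes above the controls the SD over 3 arrays had a median of 0.17, with 50% of genes between 0.11 and 0.27 and 1% above 0.72. The 18 hybridization spikes had a median SD of 0.054 and a largest SD of 0.19. Between arrays 2 and 3 the correlation across genes was 0.987. It was 0.980 between arrays 1 and 2 and 0.973 between arrays 1 and 3, across genes that are not independent. The SD of the difference was 0.29 for arrays 2 and 3, 0.36 for 1 and 2 and 0.41 for 1 and 3. Array 1 stood farther from the other arrays by each of these measures. Its median over all probe sets was also slightly lower, at 6.83 against 6.92 for the others.

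A gene was called variable when its highest and lowest arrays differed by more than 2-fold and it was above the yeast controls on all 3 arrays. Of 10744 genes, 415 (3.86%) were variable. At 1.5-fold 2108 genes passed and at 4-fold 13 did. Just inside the threshold were C05D12.5, let-2 and F10E7.1, with a range of 2.00-fold. Just outside it was nlp-47, also at 2.00-fold after rounding. Among genes above the controls, the share of variable genes was 5.98% at means between 6 and 8, 4.27% between 8 and 10 and 0.328% above 12. It was 0.247% at means of 6 or less, where the bound leaves little room for a 2-fold range. For 244 genes (2.27% of all genes above) array 1 stood apart and was low, and array 1 stood apart in either direction for 280 of the 415 (67.5%), against 43.3% of all genes above. Without array 1, 38 genes had a range above 2-fold, without array 2 there were 294 and without array 3 there were 213. Between arrays 2 and 3, 17 genes were higher on array 3 and 21 lower by over 2-fold.

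The probe sets of one gene moved together. Among 2326 genes with 2 or more probe sets above the controls, the 2 brightest were highest on the same array in 76.5% and lowest on the same array in 77.3%. Among the 50 variable genes of this kind, 49 shared the highest array and 50 the lowest. Probe sets of one gene can hold overlapping probes, so they are not fully separate readings.

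The largest SD was that of C33D9.8, at 6.40, 9.22 and 9.12, with array 1 low. The enzyme gene acdh-1, an acyl-CoA dehydrogenase of propionate breakdown, went the other way at 11.11, 9.17 and 7.99, a range of 8.73-fold. F21C10.7 was at 6.54, 9.60 and 8.61, and E01G4.5 at 7.97, 10.51 and 10.67. Of the 20 genes with the largest SD, array 1 was the lowest for 15 and the highest for 4, which were acdh-1, hphd-1, Y58A7A.5 and acdh-2. E01G4.5 and K02E2.6 (6.37, 8.05 and 8.18) are known targets of endogenous small interfering RNAs bound by the Argonaute ERGO-1. The repair gene rad-50 had 6.91, 9.22 and 8.86. The gene sdc-2, which starts dosage compensation in hermaphrodites, had 7.93, 9.92 and 9.20, and its other probe set was also lowest on array 1. The single gene of the 20 with another pattern was ZC247.1, at 8.34, 9.95 and 7.62, highest on array 2.

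**Figure D4:**
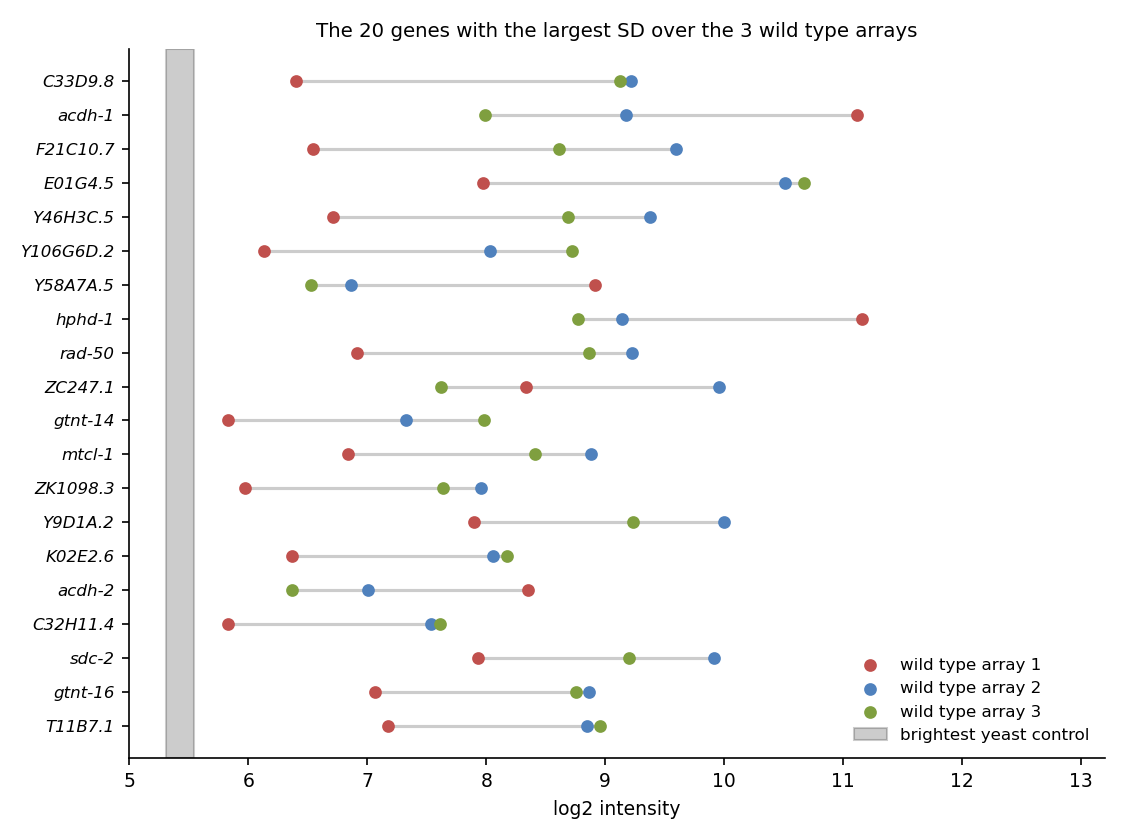
Log2 intensity (horizontal axis) on each wild type array of the 20 genes with the largest SD among genes above the yeast controls, in order of SD from the top. Points are single arrays, grey lines join the lowest and highest, and the grey band spans the brightest yeast control. Array 1 is the lowest point for 15 of the 20 genes, and acdh-1 spans 8.73-fold.

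Other variable genes are the members with the largest SD of their lists. In small RNA pathways 4 of 28 genes were variable, and the Argonaute alg-1, a main effector of microRNAs, had 9.61, 9.46 and 8.21, lowest on array 3. The Argonaute csr-1 was also lowest on array 3, at 7.68, 7.06 and 6.47. In the intestine list 3 of 35 were variable, all of them cathepsin genes of the cpr family and highest on array 1. Among translation factors eif-3.I was highest on array 1, at 8.81, 7.44 and 7.74. No gene was variable in the lists of epidermis (37 genes above), cell cycle (62), Wnt, Notch and EGF signalling (40), maternal regulators (39) or proteasome (31), beside 3.86% of all genes above. The medians of these lists ran from 9.41 to 10.73. At means between 8 and 10 the share of variable genes was 4.27%, and between 10 and 12 it was 1.47%, so few were to be found. Other lists without a variable gene include oxidative phosphorylation (36 genes above) and chaperones (34). Annotation terms with the highest shares of variable genes were proteinaceous extracellular matrix, with 4 of 27 genes above, and cysteine-type endopeptidase activity, with 4 of 34.

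Smaller shifts ran through whole groups. Over all genes above the controls, 35.4% were highest on array 1, 41.3% lowest on array 1 and 28.9% lowest on array 3, and 55.5% were higher on array 3 than on array 1. For each group the median deviation of its members above from their own 3-array mean was taken, and 23 of 61 lists and families had medians that spanned at least 0.2 between arrays. Array 1 was high for genes of cell division. Cell cycle genes were highest on array 1 in 44 of 62 cases, with median deviations of 0.13, -0.047 and -0.085 on arrays 1, 2 and 3. Replication licensing genes (8 of 12 highest on array 1, median deviation 0.27 there) and chaperonin subunits (8 of 8, 0.26) went the same way. Maternal regulators were lowest on array 3 in 32 of 39 cases, with medians of 0.13, 0.061 and -0.15. Germline genes were lowest on array 3 in 24 of 34 cases, with medians of 0.10, 0.030 and -0.16.

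Other groups shifted in the opposite direction between arrays 1 and 3. The flp neuropeptide genes were lowest on array 1 in 19 of 21 cases, with medians of -0.28, 0.078 and 0.17. The nlp genes were lowest there in 28 of 43 cases, with medians of -0.24, 0.014 and 0.21, and the transthyretin-like genes in 26 of 27, with medians of -0.29, 0.049 and 0.22. Larval defence genes were higher on array 3 than on array 1 in 14 of 16 cases, with a median of 0.31 on array 3. Pharyngeal muscle genes were lowest on array 1 in 10 of 15 cases, with a median of -0.15, while body wall muscle genes had medians of 0.050, 0.019 and -0.028. Cytosolic ribosomal protein genes were higher on array 3 than on array 1 in 64 of 77 cases and mitochondrial ones in 54 of 57, with medians of 0.11 and 0.23 on array 3. Each of these shifts is small beside a 2-fold range, and the medians quoted moved by at most 0.062 under quantile normalization or median centring. Under median centring the small array 2 medians of body wall muscle, germline and nlp genes changed sign.

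**Figure D5:**
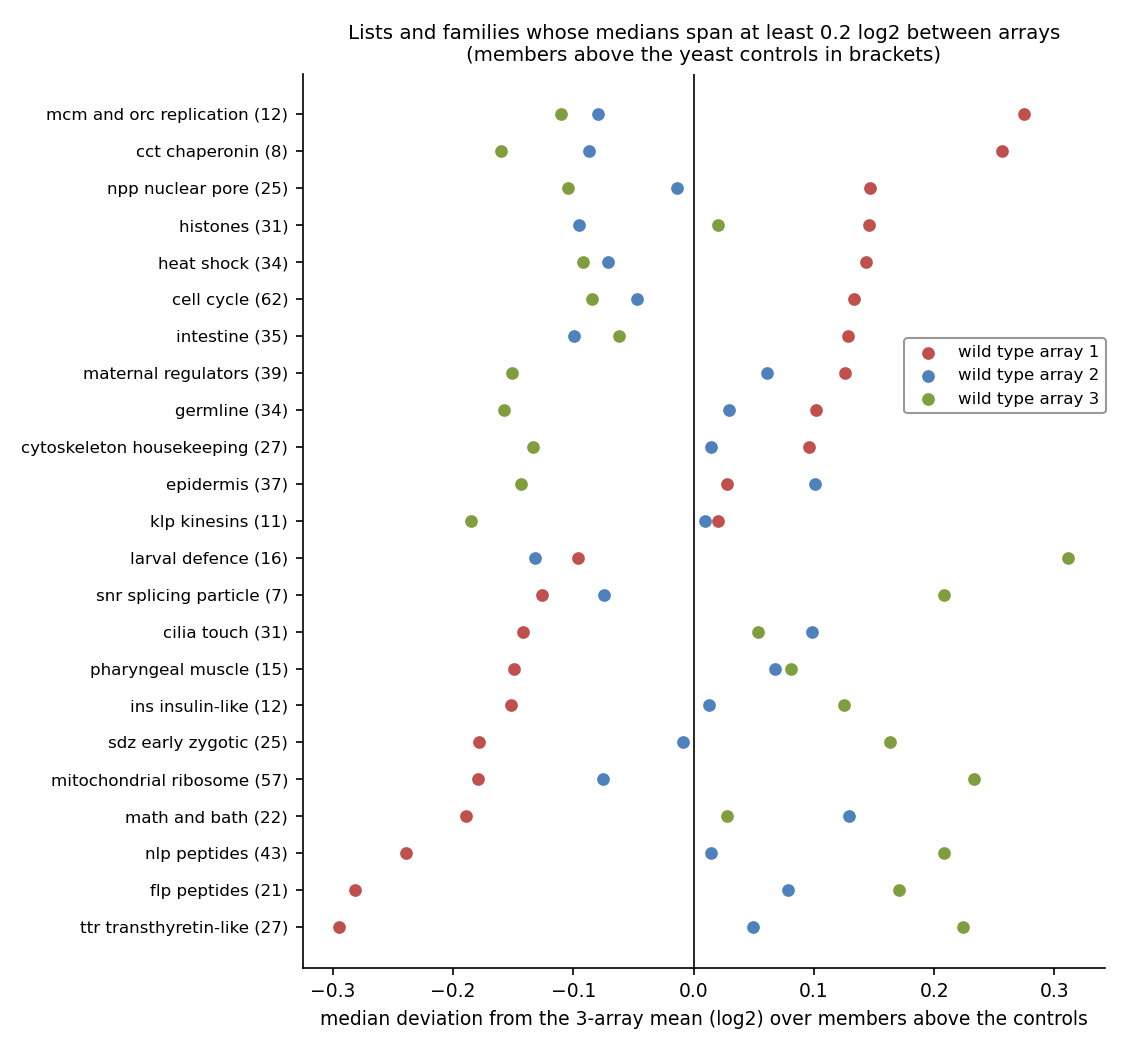
Median deviation from the 3-array mean (horizontal axis, log2) on each wild type array, over the members above the yeast controls, for the 23 lists and families whose medians span at least 0.2 between arrays. Points are arrays, and numbers in brackets are members. Replication and chaperonin genes lie at the array 1 high end, and transthyretin-like and neuropeptide genes at the array 1 low end.

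Gene length and the ends of control transcripts moved with the same arrays, and their part in these shifts was not tested. Genes spanning up to 1 kb had median deviations of -0.14, -0.044 and 0.17 on arrays 1, 2 and 3, and genes over 8 kb had 0.071, 0.012 and -0.066. Of genes up to 1 kb, 8.59% were variable, against 2.25% to 4.43% in the longer classes. The difference between the 3′ and 5′ probe sets of the same control transcript, a measure of how far labelling reached, was lowest on array 1 for each of 4 transcripts. It was 2.87, 3.01 and 3.03 for ubiquitin, 0.30, 0.47 and 0.46 for actin, 0.16, 0.42 and 0.49 for catalase, and -0.17, -0.14 and -0.022 for Gapdh. The median span of genes above the controls was 2624.5 bases. It was 756 for cytosolic ribosomal protein genes, 858 for nlp genes, 1008 for transthyretin-like genes and 1175 for flp genes, groups in which most members were higher on array 3 than on array 1. Histone genes, with a median span of 411, were highest on array 1 in 20 of 31 cases, and genes of cilia and touch neurons, with a median of 4555, were lowest on array 1 in 21 of 31.

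Propionate breakdown was looked at after acdh-1 and hphd-1 had been seen among the most variable genes. The shunt they belong to breaks down propionate without vitamin B12. All 5 genes of the shunt were highest on array 1, as were 35.4% of all genes above. The count includes acdh-1 and hphd-1, which prompted the look, so only ech-6, alh-8 and hach-1 add to it. The values were 11.16, 9.14 and 8.77 for hphd-1, 11.87, 11.09 and 11.28 for ech-6, 11.82, 11.03 and 10.89 for alh-8, and 10.03, 9.37 and 9.42 for hach-1. The 6 genes of the B12-dependent route and of B12 use did not share 1 order, since 3 were highest on array 1 and 3 were not, among them mce-1 at 9.86, 10.26 and 10.29. All 4 genes examined around the glyoxylate cycle were lowest on array 3, as were 28.9% of all genes above. They were icl-1, with its values given above, aco-2 at 9.91, 9.04 and 8.86, pck-2 at 12.01 and 11.85 on arrays 2 and 3, and mdh-1 at 12.79, 12.79 and 12.57. This list was added after values were seen, and the count includes icl-1, already named above as lowest on array 3. Array 1 was clearly the highest for aco-2 and pck-2, while arrays 1 and 2 were alike for mdh-1. Of the 3 probe sets of icl-1, 1 was slightly higher on array 2 than on array 1, at 13.24 against 13.23.

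The most stable genes with a mean over 10 were dpy-14, ZK829.7 (11.13, SD 0.006), col-74, F10D11.6 (10.94, SD 0.009) and dre-1 (10.38, SD 0.010), an F-box gene of developmental timing. With 10744 genes and 3 arrays, some genes agree this closely by chance, and no other data of the series were used to check them.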

How the data were processed

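Of the 6 Affymetrix arrays, the 3 wild type columns of the table deposited by the authors were used. The authors deposited normalized intensity values on a linear scale. The tool was Affymetrix Expression Console, per the submitters' processing notes. For its version and its summarization method, the sources used here give nothing. A summary on a common scale hides changes in total RNA. The series matrix, deposited by the authors as log2 values, differs from the log2 of that table by at most 5.55e-06 and is no separate alternative. Some label descriptions name insect stages and were not used.

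Log2 was taken without a pseudocount. Of 22625 probe sets, 77 were controls, 20440 had 1 gene, 756 several and 996 none, and 356 were left out because identifier and symbol named different genes. The brightest probe set by mean was used for each of 17009 genes, of which 16578 matched a gene table of assembly WBcel235 and 431 kept the name of the file. Chromosomes and gene spans come from that table. Probe sets of a kind marked as shared served 25.2% of genes and 30.6% of variable genes, so paralogs can share signal.

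The genes named are the 20 brightest outside the msp and his families, the 20 with the largest SD above the controls, the 5 with the smallest SD above a mean of 10, per list the 3 brightest, up to 4 at or below the controls and the one with the largest SD, and the brightest of each family. No gene of the msp or his families is named singly. The members, 32 lists and 29 name patterns were chosen with earlier results of these data known. The name patterns of chemoreceptors and ribosomal proteins were corrected, and 3 metabolic lists added, after values were seen. No sequence was printed, since none was given for these genes.

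Alternatives changed the bound, the probe sets, the normalization, the pseudocount (16), the range threshold, and the arrays used. Computations ran in Python 3.11.15 with numpy 2.4.6 and pandas 2.3.3. The range step was tested on simulated data for 10744 genes with array 1 lowered. It recovered 95% of genes lowered 2.5-fold and 100% of those lowered 4-fold, and called 0% of unchanged genes. The simulation gave every gene the same noise, with the median SD of 0.17. In the data the 95th percentile of the SD among genes above was 0.48. The 0% therefore does not give the rate of false calls in the data.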

Additional observations from a re-analysis of the deposited data

Results flagged for a closer look

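Signal appeared in probe sets that the descriptions above did not use. Of 996 probe sets with no gene in the deposited table, 286 (28.7%) were above the yeast controls on all 3 wild type arrays, with the brightest at 13.50. Of 756 probe sets that name several genes, 386 (51.1%) were above, with the brightest at 13.72, a probe set of the actin genes. Probe sets shared by the heat-inducible pairs hsp-16.1 with hsp-16.11 and hsp-16.48 with hsp-16.49 had means of 12.13 and 12.14, and one shared by F44E5.4 and F44E5.5, of the heat-inducible Hsp70 kind, had 12.75. No group had the 4 or more samples that a check for a sample standing far from the others needs.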

How the results depend on the processing

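No paired analysis was possible because a single group of 3 arrays was described, with no second group to share replicate numbers. With the median yeast control as the bound 3598 genes were at or below it on all 3 arrays, against 5419. Genes above ranged from 7691 to 12435 over all alternatives. Genes with a wide range numbered 2108 at 1.5-fold and 13 at 4-fold, and 38 to 294 when 1 array was left out, lowest without array 1. At 4-fold the share with array 3 apart was 0%, of those 13 genes. Array 1 stood apart for over 50% of variable genes under each alternative run. The leave-one-out range of genes above was 10764 to 10991, of genes at or below 5438 to 5733, and of the median SD 0.12 to 0.17. For cytochrome P450 genes the median deviation on array 1 was -0.11 over members above and 0.00057 over all members. The shares of 11 lists or families moved by over 1.5 times with a bound 2-fold over the brightest yeast control, and 111 other shares did not under that bound or with the mean of probe sets. Dim signal limits what can be called above the controls, and probe affinity limits any order of genes.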
